A study of Mus musculus with 4 samples.

Results

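The fasting response of mouse small-intestinal crypts was compared with and without tetracycline, an antibiotic, as the difference between 2 fasting changes per gene. The authors deposited 1 table of fasted against fed mice without tetracycline and 1 with it. They shared 24182 genes, and the 13194 of these with an average normalised count of at least 50 in both tables were kept. Genes were thus chosen by the deposited average over all libraries of a table, fed and fasted together, and a gene high on 1 side only could pass. The value given to each gene is the log2 fold change with tetracycline minus that without, and its error combines both standard errors (SE) as the square root of their squares added up. A negative difference means a lower fasted to fed ratio under tetracycline. At the edge of the rule, Zfp69 was kept with averages of 62.3 and 50, and Btbd11 was not, with 50 (just under, before rounding) and 147.5; their differences were -0.60 and -1.73.

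All mice were 9-week-old C57BL/6J males. The 4 groups were fed mice without tetracycline, mice fasted for 24 hours without tetracycline, fed mice after 21 days of tetracycline, and fasted mice after 21 days of tetracycline. The labels list 1 sample per group and do not say whether animals were pooled, nor the dose or route of the drug. The series' design text gives the purpose of the drug as depleting what it abbreviates as AKK. No column says which side a fold change is taken over. The tables' names put fasting first, changes were taken as fasted relative to fed on that ground, and every direction below depends on it.

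The crypt is the stem-cell-bearing pit of the gut lining, where stem and Paneth cells sit at the base and dividing progenitors above them mature into absorptive, goblet, enteroendocrine and tuft cells. Fasting is known to raise fatty acid oxidation and ketone body synthesis in this epithelium through the lipid-sensing receptor PPARα. Gut bacteria are known to set the level of antibacterial lectins, oxidant-producing enzymes and interferon-stimulated genes there. Tetracyclines block bacterial ribosomes and can also inhibit the ribosomes of mitochondria. All 16 marker genes chosen for Paneth, goblet, stem, enteroendocrine, tuft and absorptive cells were among the 13194 genes, and none of the 16 had a difference whose 95% interval left 0.

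The whole counts behind the deposited averages could be recovered for 12765 of the 13194 genes (96.7%) and showed 2 fasted and 2 fed libraries in each table. Values per library below are these counts divided by the library's size factor. They are single values that cannot be tied to the labelled samples, and libraries 1 and 2 of a side are only names. Size factors ranged from 0.93 to 1.09 without tetracycline and from 0.727 to 1.27 with it. Libraries of 1 side were often no more alike than libraries of different sides or tables. The rank correlation across the 12765 genes was 0.976 between both fasted libraries without tetracycline and 0.94 between both with it, but 0.988 between fasted library 2 without and fasted library 1 with the drug. Fed library 1 without and fed library 2 with the drug reached 0.992. Genes are not independent replicates, and these values share library preparation and are given as a description.

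For nearly all genes the fasting change with tetracycline could not be told from the change without it. In the test of the difference, a Wald test with Benjamini-Hochberg adjustment across 17571 genes that had an adjusted p in both tables, 4 genes passed an adjusted p of 0.05, which is 0.0228% of those tested. Of the 13194 genes with the required average, 1 passed, and 129 (0.978%) had an unadjusted p under 0.05, 60 with a higher and 69 with a lower change under tetracycline. That share is smaller than a p of 0.05 allows when no gene differs. The statistic of the 17571 genes had an SD of 0.71, estimated from its median deviation, where 1 would match the SEs. The test was thus conservative, and a lack of calls does not show equal changes. The labels do not say that the libraries came from separate animals, so p-values measure only the spread between these libraries, which may be technical. The median difference was 0.03 and the middle 90% of genes lay between -0.86 and 0.61. The median SE of a difference was 0.53, so that a 95% interval typically reached 1.03 to either side, a 2.05-fold range in each direction. Differences of at least 1 were found in 586 genes, 150 higher and 436 lower, but the interval left 0 in only 54 and 65 of them. Such differences were commoner at low averages: 12.4% of genes with an average of 50 to 200 had one, against 1.6% of those with 1000 to 5000.

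The single gene that passed was the predicted gene Gm14308, which falls outside the rule for named genes and is given because it is the only call. Its normalised counts without tetracycline were 145 and 66.7 in the fasted and 67.5 and 277 in the fed libraries. With tetracycline they were 313 and 212 fasted against 26.0 and 30.2 fed. The groups overlapped without the drug and stood apart with it. The difference was 3.93 ± 0.82 (SE; adjusted p = 0.00842, Wald test over all tested genes). Predicted genes of this kind often have near-identical copies, between which the counting could split reads.

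**Figure D1:**
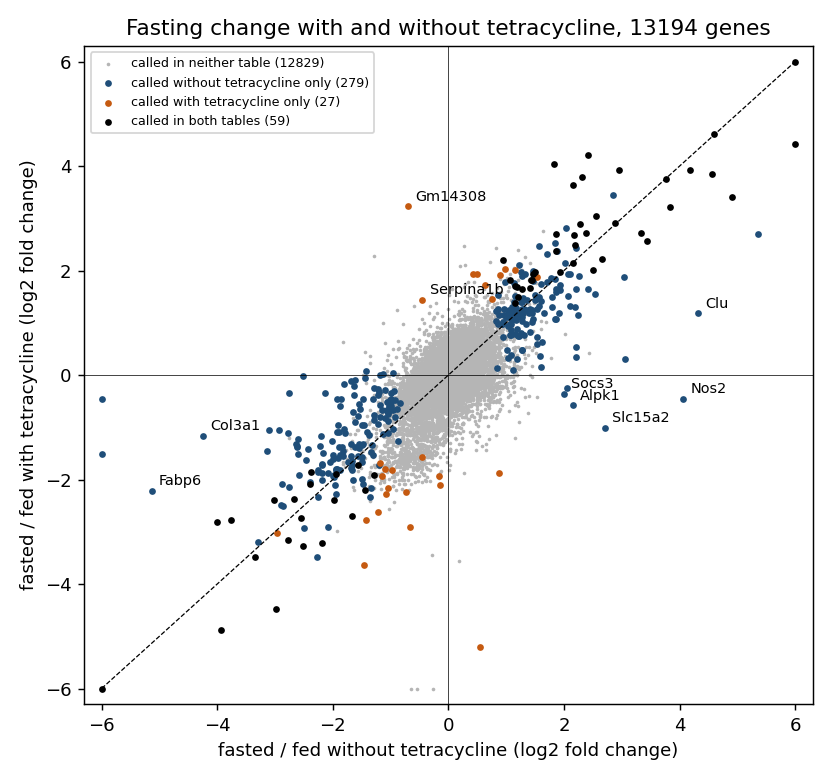
Each point is 1 of 13194 genes, with the log2 fold change of fasted over fed mice without tetracycline on the horizontal axis and with tetracycline on the vertical axis, both from the authors' deposited tables and drawn at 6 or -6 where larger. Black points, called in both tables, lie along the dashed line of equal change, while Nos2, Slc15a2, Alpk1 and Socs3 sit at the right near or under 0 on the vertical axis.

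Genes called in both tables had changes of the same sign in both. Fasting calls (adjusted p under 0.05 in the authors' deposited tables) covered 1.06% of 18100 tested genes as higher and 1.22% as lower without tetracycline, and 0.333% and 0.267% of 17993 with it. Among the 13194 genes, 59 were called in both tables, all in the same direction, 279 only without and 27 only with tetracycline. The difference passed the test for none of the 59, none of the 279 and 1 of the 27. Of the 279 called only without tetracycline, 270 had a change of the same sign with it, and the median change of the 279 was 1.53 without and 1.19 with the drug in that direction. That subset was called on the first of these values, so that the second is a description. Across the 13194 genes 66.6% had changes of the same sign in both tables, and Pearson's r was 0.61. Of the 12765 genes with counts, both fasted libraries lay above both fed ones without and below them with tetracycline in 141 (1.1%), and the reverse held in 180 (1.4%). The deposited SE was larger with tetracycline, a median of 0.43 against 0.30.

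Cyp4a10, a fatty acid hydroxylase and PPARα target, rose by 4.18 without and 3.93 with the drug in the authors' deposited tables. Its difference of -0.25 had a 95% interval from -2.17 to 1.67, and true differences across that range were not excluded. The normalised counts of Cyp4a10 were 10321 and 21654 fasted against 454 and 1311 fed without the drug, and 14671 and 19326 against 812 and 1422 with it. Fasted and fed libraries stood apart in both tables, and the difference of Cyp4a10 ran from -1.21 to 0.38 without each library in turn. Acot1, a cytosolic acyl-CoA thioesterase, rose by 3.83 and 3.22, with a difference of -0.61 (-1.92 to 0.70). The difference of Acot1 ran from -1.12 to 0.19 without each library in turn. Eif4ebp3, a translation repressor, rose by 3.76 ± 0.28 and 3.75 ± 0.75 in the deposited tables, but its fasted libraries with the drug differed from each other, at 1881 and 11140 normalised counts. Its difference was -1.79 without the higher and 0.77 without the lower of them.

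Falls were shared too. Cyp1a1, the main target of the aryl hydrocarbon receptor, fell in both of the authors' deposited tables, with changes of -10.08 without and -9.54 with tetracycline. Its fed libraries held 1657 and 2612 normalised counts without and 665 and 877 with the drug, and its fasted libraries between 0 and 3.67. The deposited fold change of a gene with so few counts depends on the model, and the difference of 0.54 had an interval from -2.15 to 3.24 and ran from 0.31 to 2.54 without each library in turn. For ccdc198 the libraries were close in all groups, at 63.3 and 55.9 fasted against 681 and 535 fed without the drug and 64.2 and 49.5 against 702 and 584 with it. Its difference was -0.14 ± 0.56 (SE), from -0.34 to 0.02 without each library in turn. Of the other 4 genes with the largest shared changes, Zbtb16, a glucocorticoid-induced transcription factor, rose by 4.90 and 3.41, Ces3b by 6.27 and 4.43, and the antibacterial lectin Reg3b by 4.56 and 3.84, while Pramel34 fell, with changes of -3.94 and -4.87 in the authors' deposited tables. Without each library in turn the differences ran from -2.79 to -0.76 for Zbtb16, -3.74 to -0.32 for Ces3b and -1.66 to 1.26 for Pramel34. Counts of Reg3b were recovered with the drug only, and its fasted libraries differed from each other there, at 12148 and 89297 against 3281 and 3799 fed.

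The 12 genes with the lowest test statistic included genes of bacterial sensing, cytokine signalling and antimicrobial defence. Of the 12, 11 had a positive fasting change without tetracycline and 9 a negative one with it in the authors' deposited tables. None passed the adjusted test, and the smallest adjusted p was 0.0966, for Slc15a2. They were selected on that statistic among all genes, so their differences are described and support nothing further. Fasted library 1 without tetracycline held the highest count in 8 of the 11 whose counts were recovered in both tables.

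Alpk1, the kinase that senses the bacterial sugar ADP-heptose, had 839 and 253 normalised counts in the fasted and 143 and 103 in the fed libraries without tetracycline. With the drug it had 93.8 and 77.0 fasted against 123 and 133 fed. Both fasted libraries lay above both fed libraries without the drug and below them with it. In the authors' deposited tables Alpk1 rose by 2.15 ± 0.50 (SE) without tetracycline, and its change with it was -0.58 ± 0.50. The difference was -2.73 ± 0.71 (adjusted p = 0.219, Wald) and -1.61 without fasted library 1 of the table without the drug.

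Tifa, the adaptor protein through which Alpk1 signals, had 5807 and 1693 normalised counts fasted against 962 and 666 fed without tetracycline. With the drug the values were 1057 and 720 fasted and 574 and 659 fed. Fasted libraries lay above fed ones in both tables, and fasted library 1 without the drug stood alone. Tifa rose by 2.20 ± 0.47 without tetracycline in the authors' deposited table, its change with it was 0.53 ± 0.42, and the difference was -1.68 ± 0.63, or -0.53 without that library.

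Socs3, the feedback inhibitor of cytokine signalling through STAT3, had 2502 and 1166 normalised counts fasted against 394 and 526 fed without the drug. Under tetracycline it had 501 and 790 fasted against 1057 and 600 fed. Socs3 rose by 2.0 ± 0.38 without tetracycline in the authors' deposited table, against -0.36 ± 0.50 with it. Its fasted libraries were clear of the fed ones without the drug and overlapped them with it. The difference of -2.36 ± 0.63 (adjusted p = 0.269, Wald) kept its sign without each library in turn, between -2.80 and -1.70.

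Nos2, the inducible nitric oxide synthase, had 9071 and 1415 normalised counts fasted against 236 and 392 fed without tetracycline, and 109 and 164 fasted against 249 and 122 fed with it. Fasted library 1 without the drug was the highest by far. The deposited change of Nos2 was 4.06 ± 1.19 without (a call) and -0.45 ± 0.58 with tetracycline, a difference of -4.51 ± 1.32, or -2.61 without that library.

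Clu, the secreted chaperone clusterin, had 2864 and 681 normalised counts fasted against 69.5 and 107 fed without the drug, and 243 and 414 against 129 and 160 with it. It rose by 4.32 ± 0.98 without tetracycline in the authors' deposited table, and its change with the drug was 1.18 ± 0.50. Fasted libraries of Clu stood above fed ones in both tables, and the difference of -3.14 ± 1.10 was -1.75 without fasted library 1 of the table without the drug.

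Reg3g, a secreted lectin that kills Gram-positive bacteria, rose by 3.06 ± 0.92 without tetracycline in the authors' deposited table, and its change with it was 0.31 ± 0.50. Its average was 41760 without and 2749 with the drug, and the tables were scaled separately. Counts of Reg3g could be recovered with tetracycline only, at 1911 and 4180 fasted against 2575 and 2329 fed, which overlap. The related lectin Reg3a went the other way: its change was -1.42 ± 0.39 without, a call, and 0.07 ± 0.58 with tetracycline in the deposited tables, a difference of 1.49 ± 0.70. With the drug its fasted libraries held 3885 and 11289 normalised counts against 6008 and 8406 fed, and the difference was 0.53 without the higher fasted library, or 0.86 without fed library 2 of the other table.

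Slc15a2, a proton-coupled peptide transporter, had the lowest statistic and did not rest on fasted library 1. Without tetracycline it had 433 and 617 normalised counts fasted against 69.5 and 91.4 fed. With the drug it had 142 and 96.3 fasted, and its fed libraries differed from each other at 413 and 65.8. The difference of Slc15a2 was -3.72 ± 0.90, and -1.85 without fed library 1 of the table with tetracycline. It rose by 2.71 ± 0.36 without the drug in the authors' deposited table, against -1.01 ± 0.82 with it.

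The other 5 of the 12 were not called without tetracycline. Herc6, an interferon-induced ubiquitin ligase, and Nlrp9b, a sensor of viral RNA in intestinal cells, had deposited changes of 0.65 and 0.47 without and -1.44 in both cases with the drug. Ctse, the aspartic protease cathepsin E, fell by 1.94 ± 0.46 with tetracycline in the authors' deposited table, where its fed libraries held 805 and 990 normalised counts and its fasted ones 294 and 172. Skil, a repressor of TGF-β signalling, and Eps8l1, an actin regulator, had differences of -1.48 ± 0.54 and -1.97 ± 0.75. Without fasted library 1 of the table without the drug the differences were -0.61 for Skil, -1.15 for Herc6 and -0.77 for Nlrp9b, and without fed library 1 of the table with it that of Eps8l1 was -1.03. Duox2, an oxidase that makes hydrogen peroxide at the epithelial surface, was also called with tetracycline only, with deposited changes of 0.88 ± 1.17 and -1.87 ± 0.41. Its counts without the drug were 2604 and 393 fasted against 761 and 862 fed, and with it 127 and 127 against 457 and 470. The difference of Duox2 was -2.76 ± 1.24, or -0.82 without fasted library 1 of the table without the drug.

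**Figure D2:**
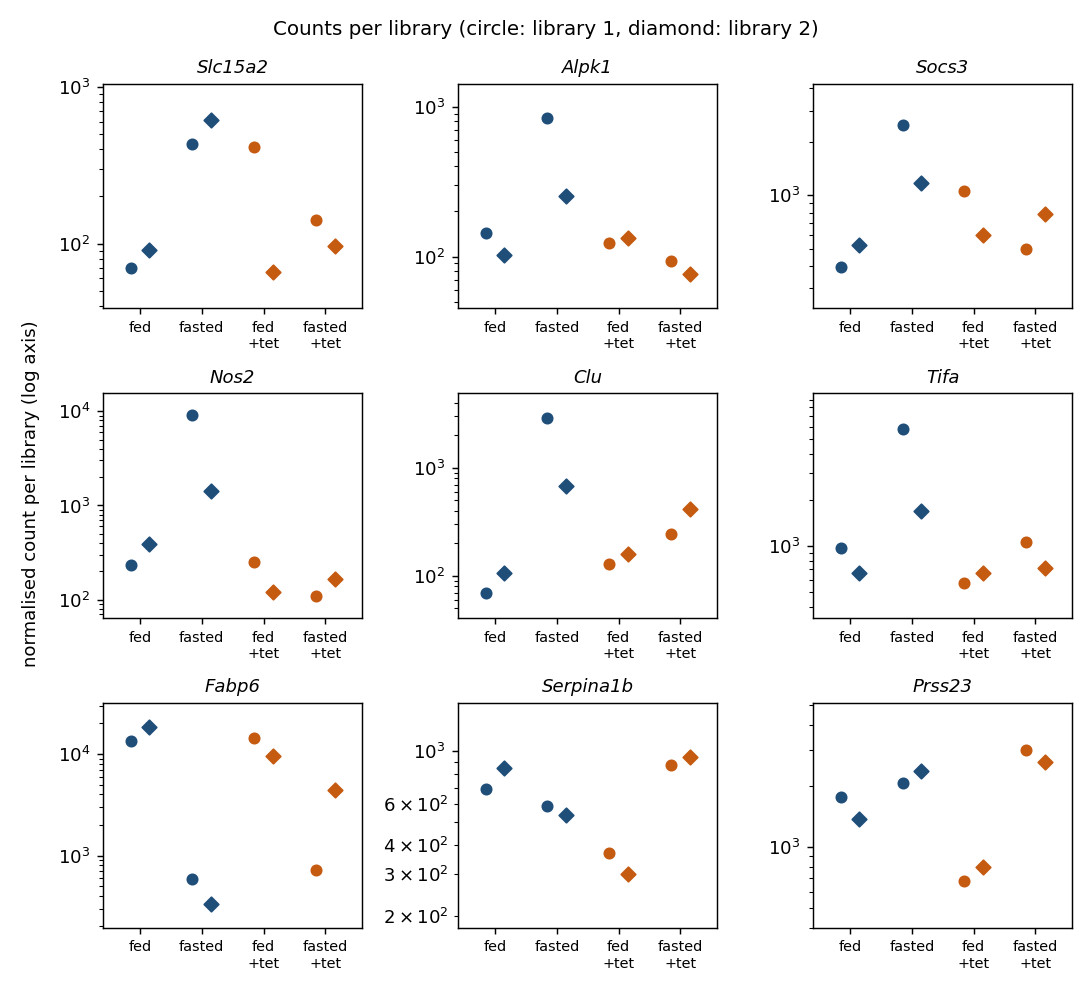
Each panel shows 1 gene as normalised counts on a log axis, with circles for library 1 and diamonds for library 2 of each group, blue without and orange with tetracycline. In the panels of Alpk1, Nos2, Clu and Tifa the fasted circle without the drug is the highest point, while Serpina1b and Prss23 show close pairs in every group.

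Fasted library 1 without tetracycline also differed from its partner in the level of cell type genes. Absorptive enterocyte genes whose counts could be recovered (7 of 40 listed) stood at a median of 1.11 above the mean of the table's libraries on the log2 scale in it, against -0.40 in fasted library 2. With tetracycline the fasted library with the high enterocyte level was library 2, at 1.27 against -0.68 in library 1. Of the genes with the lowest test statistic, Clu (414), Reg3g (4180) and Tifa (720) lay in that library above both fed libraries with the drug. Nos2 (164), Socs3 (790) and Slc15a2 (96.3) lay between those fed libraries. Alpk1 (77.0), Herc6 (337), Nlrp9b (266), Ctse (172), Skil (1512) and Eps8l1 (116) lay below them. Summed lymphocyte counts (29 of 30 listed genes recovered) were 18391 and 36756 fasted against 43235 and 62061 fed without the drug, and 61260 and 9613 against 191531 and 46811 with it. Whether these differences between libraries contribute to the gene differences was not tested, and in bulk RNA fewer cells of a type and less RNA per cell cannot be told apart.

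Promoters are shown for 3 genes with a lower fasting change under tetracycline, because Socs3 is a classical STAT target and the interferon genes share a known promoter element. They are the 250 bases before the RefSeq start on GRCm38.p6, 5′ to 3′ on the gene's strand, with capitals for matches of the STAT motif TTCNNNGAA or the interferon-stimulated response element (GAAA, any 2 bases, GAAA) on either strand.
Socs3 (chr11:117969367-117969616, minus strand): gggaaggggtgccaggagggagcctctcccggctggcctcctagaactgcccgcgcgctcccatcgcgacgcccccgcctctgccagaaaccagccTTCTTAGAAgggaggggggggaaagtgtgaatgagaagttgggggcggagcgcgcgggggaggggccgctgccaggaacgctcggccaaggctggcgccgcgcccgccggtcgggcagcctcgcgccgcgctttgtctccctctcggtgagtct
Alpk1 (chr3:127780528-127780777, minus strand): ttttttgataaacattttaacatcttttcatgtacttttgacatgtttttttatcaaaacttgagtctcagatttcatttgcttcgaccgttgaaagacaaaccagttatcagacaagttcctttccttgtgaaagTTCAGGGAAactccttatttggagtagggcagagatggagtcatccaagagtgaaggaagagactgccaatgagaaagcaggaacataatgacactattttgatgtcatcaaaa
Ifit1bl1 (chr19:34601969-34602218, minus strand): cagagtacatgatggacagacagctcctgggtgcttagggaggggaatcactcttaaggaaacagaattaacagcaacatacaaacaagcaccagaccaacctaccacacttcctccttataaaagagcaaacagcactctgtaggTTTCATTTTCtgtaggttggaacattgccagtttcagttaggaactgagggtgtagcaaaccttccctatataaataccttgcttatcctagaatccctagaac

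A promoter was found for 10066 of the 13170 gene symbols. The STAT motif was present in 7.2% of them and in 3 of the 8 promoters found among the 12 lowest genes (Alpk1, Nlrp9b and Socs3). Of the 12 highest genes, 1 of 10 held it, that of Prss23. The interferon element was present in 3.3% of all promoters and in 20 of the 29 found for the interferon list, which is built of genes known for it. Rsad2, whose difference was 0.62 ± 0.67 (0.14 to 1.34 without each library in turn), held the interferon element too, and Isg20 the STAT motif. A match says only that these letters occur in the window.

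Genes of the interferon response, the program that restricts viruses and is known to be kept up by gut bacteria, had a lower fasting change with tetracycline in 35 of 39 cases. The median of the list's difference was -0.88, beside 0.03 over all 13194 genes, of which 46.4% were below 0. None of the 39 passed the test of the difference. Without tetracycline 1 fell and with it none was called by the authors' deposited tests, and the list's median change was -0.22 and -1.10. Relative to the mean of its table, the list's median log2 level with tetracycline was 0.86 in fed library 1, 0.19 in fed library 2, and -0.66 and -0.26 in the fasted libraries. Without the drug it was 0.20 and -0.54 fasted against 0.09 and 0.23 fed. The median difference stayed below 0 without each of the 8 libraries, between -1.32 and -0.23, the weakest without fasted library 1 of the table without the drug. With the SE of a difference limited to at most 0.5, the list's median was -0.08. Lymphocyte genes were also highest in fed library 1 with tetracycline (2.07). In the fasted libraries they stood at 0.40 and -2.41 with and -1.02 and 0.02 without the drug. The 7 recovered absorptive enterocyte genes stood there at -0.68 and 1.27 with and 1.11 and -0.40 without it. Whether either cell type contributes to the interferon difference was not tested.

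Ifit1bl1, an interferon-induced gene of the Ifit cluster, had 2311 and 732 normalised counts fasted against 1027 and 1154 fed without tetracycline, and 329 and 732 against 1388 and 1170 with it. Fasted and fed libraries overlapped without the drug and did not with it. Oasl2, a relative of the RNA-sensing oligoadenylate synthetases, had 3813 and 1209 against 2173 and 2483, and 720 and 1388 against 3382 and 2518 with the drug. The differences were -1.75 ± 0.68 for Ifit1bl1 and -1.60 ± 0.65 for Oasl2, or -0.69 and -0.54 without fasted library 1 of the table without the drug. At the other end of the list, Isg20, an RNA exonuclease, fell by 1.62 without tetracycline in the authors' deposited table, against -0.89 with it, a difference of 0.72 ± 0.73 that was -0.04 without fasted library 1 of the table with the drug.

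Microbiota-responsive defence genes (30 of 39 listed passed the average of 50) had a median difference of -0.79, with 24 below 0. Without tetracycline 7 rose and 5 fell, and with it 1 rose and 6 fell in the authors' deposited tables. Of the differences, 5 had an interval below 0 and 1 above it, and none passed the test. Without fasted library 1 of the table without the drug the list's median difference was -0.12, and it was also -0.12 with an SE of at most 0.5. Rdh7, a retinol dehydrogenase repressed by gut bacteria, was at the upper end with Reg3a, with a difference of 1.04 ± 0.71, which was -0.25 without fasted library 2 of the table with tetracycline. Its counts with tetracycline were 10004 and 38680 fasted against 7181 and 9803 fed.

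**Figure D3:**
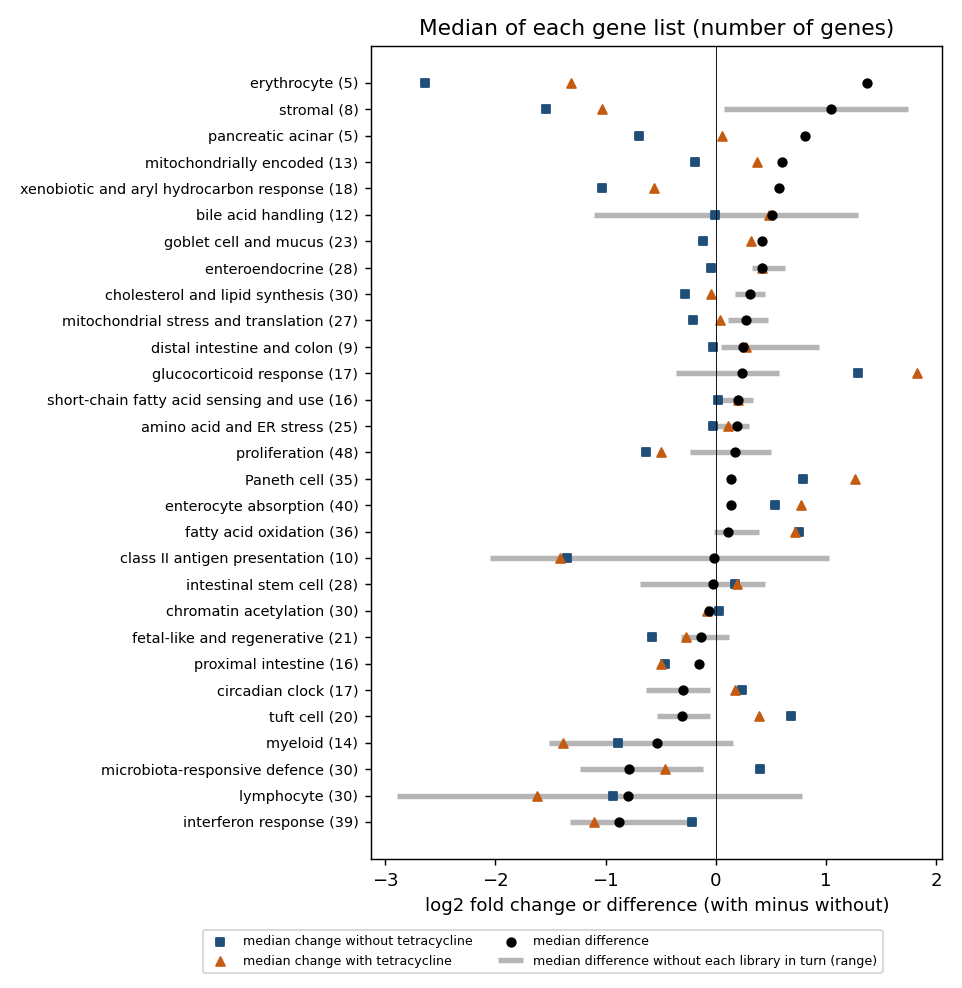
Median log2 fold change without tetracycline (blue squares) and with it (orange triangles) from the authors' deposited tables, and median difference (black), for 29 of the 30 gene lists (gastric mucosa is not drawn) with the number of genes in brackets; grey bars span the median difference without each library in turn and are drawn where counts were recovered for at least 80% of a list. Among the lists drawn, interferon response lies lowest and erythrocyte genes highest, and the bars of lymphocyte and class II genes are the widest.

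The 28 enteroendocrine genes, which mark the hormone-secreting cells, all had a higher fasting change with tetracycline, by 0.02 to 1.26, with a median difference of 0.42. Among all genes 53.6% were above 0. Of the 28, 1 fell without tetracycline and none was called with it by the authors' deposited tests, and none of the 28 differences passed the test. The list's median difference was between 0.33 and 0.63 without each library in turn. Gcg, which encodes glucagon and GLP-1, had 1787 and 2794 normalised counts fasted against 2492 and 3503 fed without the drug. With it, Gcg had 2756 and 2156 fasted against 1034 and 1651 fed. The fasted libraries overlapped the fed ones without the drug and were all higher with it, and the difference was 1.26 ± 0.54 (SE). Chga, the granule protein chromogranin A, had 10260 and 10759 fasted against 6383 and 5906 fed with tetracycline, where its fed libraries were the lowest of the table; without the drug it had 8132 and 10902 against 8671 and 9755. At the low end of the list, Pcsk1n and Neurod1 both had a difference of 0.02, which ran from -0.51 to 0.43 and from -0.11 to 0.14 without each library in turn. The genes share their cells, so that 28 is not a count of independent observations.

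Mitochondrial genes showed a small shift in 1 direction. All 13 protein-coding genes of the mitochondrial genome had a higher fasting change with tetracycline, by 0.27 to 0.81 with a median of 0.60. They are transcribed together, and none was called in either of the authors' deposited tables or passed the test of the difference. For mt-Nd2, a subunit of respiratory complex I, the authors' deposited tables gave a change of -0.34 ± 0.30 without and 0.38 ± 0.37 with tetracycline. For mt-Co1, a subunit of cytochrome oxidase, these were -0.15 and 0.12. Counts were recovered for 1 of the 13, so that the share of single libraries in this shift was not tested. That gene had 10398 and 20208 normalised counts fasted against 18916 and 19518 fed without the drug. With it the values were 17291 and 14295 fasted against 11855 and 15503 fed. Of 27 nuclear genes for mitochondrial translation and stress, 26 had a difference above 0, with a median of 0.27 (0.11 to 0.47 without each library in turn). Mrpl12, a mitochondrial ribosomal protein, had 8060 and 9234 normalised counts fasted against 10176 and 13836 fed without the drug and 9922 and 9932 against 8893 and 9803 with it, a difference of 0.56 ± 0.45 that was 0.32 without fed library 2 of the table without the drug. Both fasted libraries of Mrpl12 were below the fed ones without tetracycline and above them with it.

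**Figure D4:**
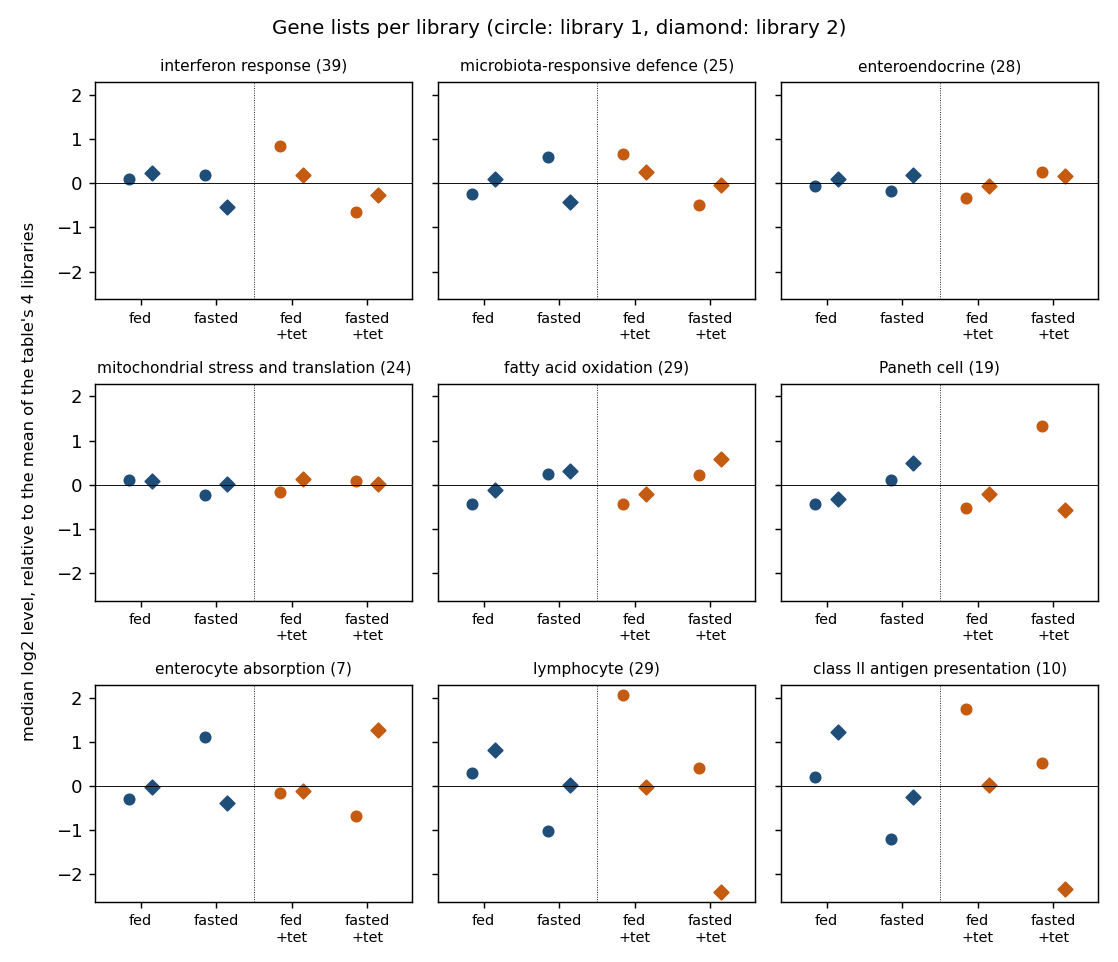
Each panel gives the median log2 level of a gene list in each library, relative to the mean of the 4 libraries of its table, with circles for library 1 and diamonds for library 2, blue without and orange with tetracycline; brackets give the number of genes with recovered counts. Fatty acid oxidation genes are higher in all 4 fasted than in their fed libraries, while lymphocyte genes range from -2.41 to 2.07 within the table with tetracycline.

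Fatty acid oxidation genes had a positive median fasting change in both tables. Of 36 genes, 14 rose without and 8 with the drug in the authors' deposited tables, none fell, and the list's median change was 0.75 and 0.72. Its median difference was 0.11, from -0.02 to 0.39 without each library in turn. Angptl4, a secreted inhibitor of lipoprotein lipase, was the highest, rising by 2.16 and 3.64 in the deposited tables, with 12573 and 9851 normalised counts fasted without and 9049 and 36129 with the drug. Its fed libraries held 1622 and 3402 without and 1713 and 1909 with it. The difference of 1.48 ± 0.74 was 0.16 without fasted library 2 of the table with tetracycline. Glucocorticoid-responsive genes were alike in this respect, with 9 of 17 rising without and 8 with tetracycline, a median change of 1.29 and 1.82 and a median difference of 0.24, which ran from -0.36 to 0.57 without each library in turn. Ddit4, an mTOR inhibitor of that list, rose by 1.07 without and 1.82 with the drug in the authors' deposited tables, with close libraries in each group: 3749 and 4360 fasted against 1716 and 2134 fed without it, and 6526 and 7161 against 1943 and 1924 with it. The difference for Ddit4 was 0.75 ± 0.44.

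Of the 12 genes with the highest statistic, 7 fell without tetracycline and were not called with it in the authors' deposited tables. Fabp6, the ileal bile acid binding protein, had 583 and 330 normalised counts fasted against 13402 and 18584 fed without the drug, and 728 and 4434 fasted against 14357 and 9523 fed with it. Fasted libraries lay below fed ones in both tables. In the authors' deposited tables Fabp6 fell by 5.13 ± 0.34 without, and its change with tetracycline was -2.21 ± 0.75. The difference was 2.92 ± 0.82 (adjusted p = 0.566, Wald), and 1.09 without fasted library 2 of the table with the drug. Of 12 bile acid genes, 10 had a difference above 0, with a median of 0.51 that became -1.10 without the same library.

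Serpina1b, one of the near-identical mouse copies of the protease inhibitor antitrypsin, had 587 and 538 normalised counts fasted against 689 and 846 fed without tetracycline and 877 and 942 against 370 and 302 with it. Its fasted libraries were below the fed ones without the drug and above them with it. Serpina1b rose by 1.44 ± 0.39 with tetracycline in the authors' deposited table, against -0.45 ± 0.29 without. The difference of 1.88 ± 0.49 (adjusted p = 0.21, Wald) moved least with the libraries, between 1.73 and 2.04. Reads of Serpina1b could be shared with its copies.

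Prss23, a serine protease, had close libraries as well, at 2061 and 2371 fasted against 1766 and 1382 fed without the drug and 3014 and 2628 against 678 and 793 with it. Fasted libraries of Prss23 were above fed ones in both tables. It rose by 1.94 ± 0.37 with tetracycline in the authors' deposited table, against 0.49 ± 0.28 without. The difference was 1.45 ± 0.46, between 1.26 and 1.61 without each library in turn.

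The carboxylesterases Ces1c and Ces1d, which hydrolyse esters of lipids and drugs, had differences of 2.13 ± 0.64 and 1.87 ± 0.71. Ces1d had 1518 and 5162 normalised counts fasted with the drug, and its difference was 0.73 without the higher of them. Ces1c had 65.1 and 122 normalised counts fasted against 208 and 199 fed without the drug and 238 and 239 against 139 and 100 with it, 1 order without and the reverse with it. Gsta3, a glutathione transferase, fell by 1.93 without tetracycline in the authors' deposited table, against -0.45 with it. It had 281 and 277 fasted against 729 and 1402 fed libraries, and 552 and 699 against 720 and 989 with the drug. Of 18 xenobiotic response genes, 8 fell without and 1 with tetracycline, and 14 had a difference above 0, with a median of 0.57, or 0.06 with an SE of at most 0.5. Bco1, which cleaves β-carotene, Fhl1, a LIM-domain protein, Ankrd37, a hypoxia-responsive gene, and Ceacam10, a cell adhesion protein, fell without tetracycline in the authors' deposited table, with changes of -2.13, -1.61, -2.76 and -2.52. Their changes with it were -0.34, -0.09, -0.35 and -0.01. The difference of Ankrd37, 2.41, was 0.74 without fasted library 2 of the table with tetracycline. Without fed library 2 of the other table that of Ceacam10 went from 2.51 to 1.14 and that of Gsta3 from 1.48 to 0.93. Osr2, a zinc finger transcription factor, had deposited changes of -0.62 and 0.70.

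Col3a1, a fibrillar collagen of connective tissue, had the highest statistic of the genes named by rule, below that of Gm14308, with 13.8 and 31.2 normalised counts fasted against 177 and 664 fed without tetracycline and 68.3 and 86.7 against 192 and 153 with it. It fell by 4.24 ± 0.60 without the drug in the authors' deposited table, against -1.16 ± 0.50 with it, a difference of 3.07 ± 0.78 (adjusted p = 0.194, Wald). Fed library 2 without tetracycline was the highest, and the difference was 1.77 without it. That library was also the highest of its table in summed stromal counts (3595, against 1175 to 2104 in the other 3; 8 of 20 listed genes passed). The sum includes Col3a1 itself, which gave 664 of the 3595. Whether the stromal share of the preparations accounts for Col3a1 was not tested.

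**Figure D5:**
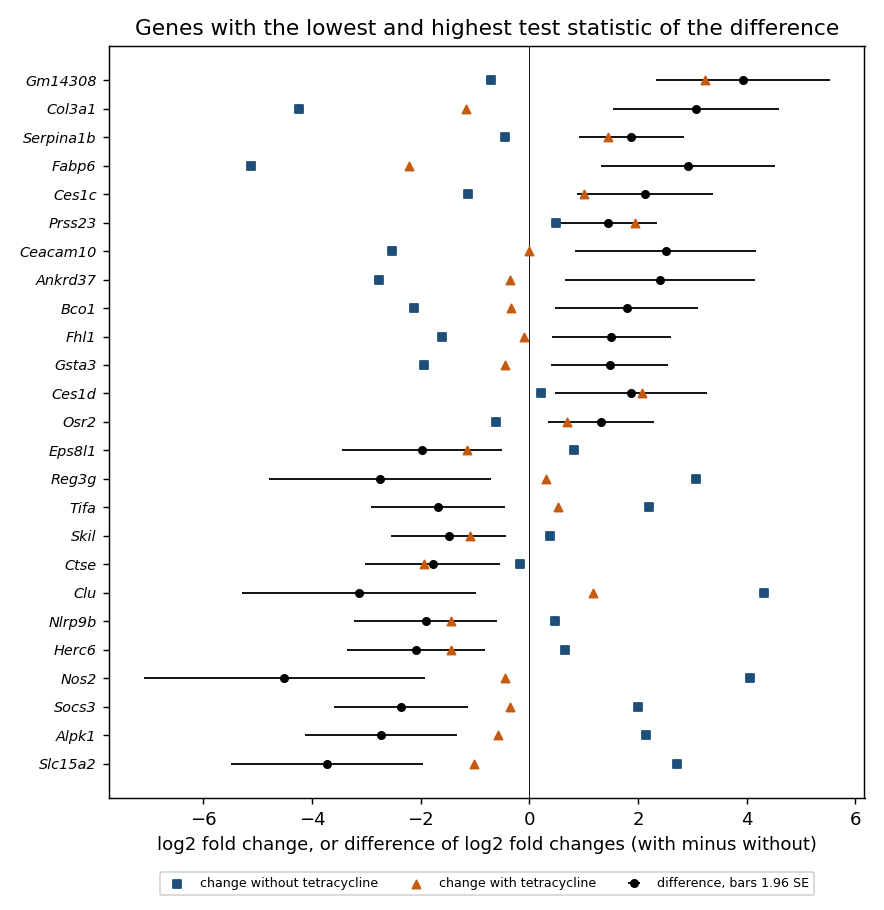
For the genes with the lowest and highest test statistics and Gm14308, black points give the difference of the log2 fold changes with bars for the 95% interval, blue squares the fasting change without and orange triangles that with tetracycline, both from the authors' deposited tables. Every bar leaves 0 because the genes were selected on this statistic, and only Gm14308 passed the adjusted test.

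In cholesterol and lipid synthesis, 22 of 30 genes had a difference above 0 and the median was 0.31 (0.17 to 0.45 without each library in turn). Scd1, the fatty acid desaturase, fell by 1.85 without tetracycline in the authors' deposited table, against -0.45 with it, a difference of 1.40 ± 0.70, between 0.84 and 2.29 without each library in turn. Acacb, a mitochondrial acetyl-CoA carboxylase, was at the low end, rising by 3.44 and 2.57 in the deposited tables, a difference of -0.86 ± 0.66 that ran from -1.60 to -0.27.

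Median differences of the other epithelial cell type lists lay between -0.31 and 0.42. Paneth genes rose in 13 of 35 cases without and 1 of 35 with the drug in the authors' deposited tables, although their median change was 0.79 without and 1.26 with it, and the median difference was 0.14. In the fasted libraries with the drug the Paneth level differed between libraries, at 1.34 and -0.57 around the table's mean. Medians without each library in turn crossed 0 for stem cell genes (-0.69 to 0.45) and proliferation genes (-0.23 to 0.50). Stem cell genes (28) had a median difference of -0.03 and proliferation genes (48) of 0.17, the latter with 5 falling without and none called with tetracycline. For the 40 absorptive enterocyte genes it was 0.14, for 23 goblet and mucus genes 0.42. Of 20 tuft cell genes 16 had a difference below 0, with a median of -0.31 that was -0.05 without fasted library 1 of the table without the drug, and Plcb2, a phospholipase of taste signalling, was the lowest at -1.40 ± 0.62 (-2.01 to -0.96 without each library in turn). It had 557 and 565 fasted against 421 and 388 fed without the drug and 495 and 241 against 889 and 518 with it. Chromatin acetylation genes (30) had a median difference of -0.06, and 16 genes of short-chain fatty acid sensing and use of 0.20.

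Several lists of other cell types varied strongly between libraries. So did the bile acid genes, with medians from -1.10 to 1.29 without each library in turn. Lymphocyte genes had a median difference of -0.80 over 30 genes, which was -2.89 without fasted library 1 and 0.78 without fed library 1 of the table with tetracycline. For 8 stromal genes it was 1.04, and 0.07 without fed library 2 of the table without the drug. It turned to -0.65 with averages of at least 200, and Pecam1, an endothelial adhesion protein, and Vim, an intermediate filament, had differences of -0.73 and -0.58, which ran from -2.02 to 0.11 and from -1.53 to 0.34 without each library in turn. Myeloid genes stood at -0.53 (14 genes, 0.16 without fed library 1 of the table with tetracycline) and class II antigen presentation genes at -0.02 (10 genes), which was -2.05 without fasted library 1 and 1.03 without fed library 1 of the table with tetracycline. For 5 erythrocyte genes the median was 1.37, and fed library 2 without the drug held the most of their recovered counts. Gastric mucosa genes, which a small-intestinal preparation should lack, had the lowest median of all lists, -5.76 over 5 genes, with a median SE of 3.20. It was -1.06 with averages of at least 10, -0.46 with at least 200, and 0.20 without fasted library 2 of the table without the drug. Gkn1, a stomach-specific protein, had 0.917 and 139 normalised counts fasted and 16.9 and 186 fed without the drug and 0 and 24.8 against 534 and 1977 with it. These counts differed more between libraries of a side than between sides without tetracycline.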

How the data were processed

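RNA-seq of small-intestinal crypts from 4 groups was used as 2 tables of the authors' comparisons, fasted against fed without and with tetracycline. Per the file headers they hold the authors' average normalised count (a signal), the log2 fold change with its SE, a test score and p-values. The authors used Salmon, DESeq2 and mm10, per the submitters' processing notes, which name no versions. The kit did not mark strand, so overlapping genes cannot be told apart, and copies (Defa, Reg3, Ifit, Ces1, Serpina1) are uncertain.

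Changes were subtracted per gene and tested with a Wald test, Benjamini-Hochberg adjusted over all tested genes. Whole counts per library were recovered from the digits of the deposited averages, with the deposited change and SE narrowing the search. Recovery was checked on simulated data. Values leaving out a library use log2 of the normalised count plus 1. Leaving out predicted genes, pseudogenes and receptor segments, the genes named were called differences, the 12 lowest and 12 highest statistics, the 2 lowest and 2 highest of each of 30 lists, the 10 largest calls shared by both tables and the 10 strongest differences among calls of opposite sign in the other table; Gm14308 was added after its values were seen. Members, lists and rules were chosen with earlier results of these data known. Alternatives were other averages, thresholds, centring and, chosen after seeing the data, limma 3.58.1 (R 4.3.3) on recovered counts. Python 3.11.15 with scipy 1.17.1 was used. The 8 libraries limit the precision; their total depth was not given in the sources used here. Some genes that the rule names are not reported here.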

Additional observations from a re-analysis of the deposited data

Results flagged for a closer look

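Gm14308 was the only one of the 13194 genes whose fasting changes differed between the tables by the adjusted test. The difference was 3.93 ± 0.82 (SE; adjusted p = 0.00842, Wald test with Benjamini-Hochberg), and limma on the recovered counts of the 8 libraries gave an adjusted p of 1. It was 2.54 without fed library 2 of the table without tetracycline. It is a predicted gene.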

How the results depend on the processing

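The count of called differences, 1 among the 13194 genes, was 2 at an adjusted p of 0.1, 17 with the statistic divided by its robust SD of 0.71, 4 with averages of at least 10, and 0 with at least 200, at least 500, or limma on recovered counts (chosen after seeing the data; 141 of 12765 genes at an unadjusted p under 0.05). Differences of at least 1, 586 genes, became 1575 with averages of at least 10, 289 with 200, 168 with 500, 36 at a difference of 2 and 10 with an SE of at most 0.5. Lists with a median of at least 0.5 either way numbered 11, and 2 with that SE limit. The interferon median of -0.88 became -0.08 under it, and at averages of at least 200 the stromal one of 1.04 became -0.65, the pancreatic one of 0.81 became -0.12 and the gastric one of -5.76 became -0.46 (-1.06 at 10). The causes were not tested, beyond fewer or more genes being eligible. Of 125 named genes with counts, 77 kept the sign of their difference without each of the 8 libraries. All 23 with counts among the lowest and highest genes kept it too. Those were selected on this difference in the same libraries, so that a kept sign supports nothing further. No paired analysis was possible because the labels carry no replicate numbers.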
